A study of Danio rerio with 3 samples.

Results

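The class MN5 is 1 of 28 classes that the authors named in an integrated table of cells from zebrafish embryos, and its members are the cells with that name in the finer annotation of that table. There were 312 MN5 cells among 6264 cells in all (4.98%, exact 95% binomial interval 4.46 to 5.55), of which 29 came from embryos at 24 hours post fertilisation (hpf), 45 from 36 hpf and 238 from 48 hpf. The embryos were wild type and untreated and carried the transgene Tg(olig2:EGFP), in which olig2 regulatory sequence drives green fluorescent protein, and whole deyolked embryos were dissociated and sorted for green cells. Each stage had 1 single-cell RNA library, so every interval given here covers counting error within a library only, and no test between stages could be made. Green fluorescence marks the progenitors of the pMN domain in the ventral spinal cord and cells descended from them, but the sort by itself does not restrict cells to the cord or to that lineage.

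The pMN domain makes motor neurons, whose axons leave the cord to contact muscle, and later cells of the oligodendrocyte lineage. Motor neurons release acetylcholine and in the embryo are marked by homeobox factors such as mnx1. GABAergic interneurons (GABAergic IN) are inhibitory neurons that stay within the central nervous system and make the transmitter GABA with the glutamate decarboxylases encoded by gad1b and gad2. The tables used here held no value per gene, so gad1b, gad2 and mnx1 could not be checked in MN5, and its cells are described by their depth, mitochondrial share, cell cycle scores, names and position in the authors' embeddings.

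The libraries held 1826 cells and 16432785 UMIs at 24 hpf, 2044 cells and 10656224 UMIs at 36 hpf, and 2394 cells and 17562789 UMIs at 48 hpf, where a UMI (unique molecular identifier) counts 1 captured RNA molecule. The 48 hpf library used other cell barcodes than the earlier libraries. Of its 238 MN5 cells, 209 (87.8%) had a barcode whose first 7 bases occurred in no other library, against 2082 (87.0%) of all 2394 cells. No 48 hpf cell shared its full barcode with an earlier library, and 7 of the 36 hpf cells, 1 of them in MN5, shared one with a 24 hpf cell. The stage and the barcode set of the 48 hpf library cannot be told apart in any comparison that follows.

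The separate tables of the stages gave MN5 cells 1 main name at 24 and 36 hpf and another at 48 hpf. At 24 hpf, 27 of the 29 MN5 cells (93.1%, 77.2 to 99.2) carried the name GABAergic IN in the stage table, and at 36 hpf 42 of 45 did (93.3%, 81.7 to 98.6). At 48 hpf no MN5 cell had that name and 223 of 238 (93.7%, 89.8 to 96.4) were MN4. MN5 cells at 48 hpf shared no name with earlier MN5 cells. The same held for integrated MN3 cells, but not for integrated MN1, MN2, MN4 or V3 IN. For the main names of MN5 this was fixed by which names each stage's table used. The name GABAergic IN was given to 57 cells of the 24 hpf table, 44 of the 36 hpf table and 0 of the 48 hpf table, and the name MN4 to 303 cells of the 48 hpf table and to none of the earlier ones.

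**Figure D1:**
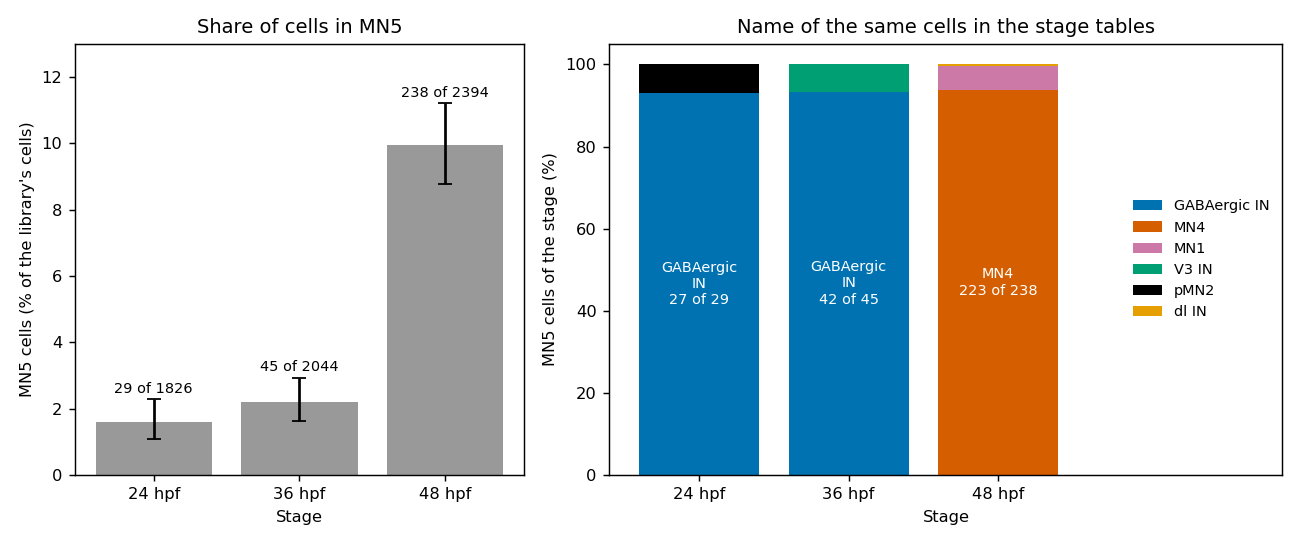
Left, MN5 cells as a percent of each library's cells, with exact 95% binomial intervals (counting error only). Right, the names of the same cells in the tables of the single stages, as a percent of the MN5 cells of that stage. GABAergic IN covers 27 of 29 and 42 of 45 cells at 24 and 36 hpf, and MN4 covers 223 of 238 at 48 hpf.

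The remaining MN5 cells were few, and their median depth differed from that of the main group at each stage. At 24 hpf the other 2 cells were named pMN2, a progenitor class, and had 541 and 1353 UMIs, below every one of the 27 cells named GABAergic IN (2546 to 11044). At 36 hpf the other 3 were named V3 IN, a class of ventral interneurons, and had 800, 1240 and 4340 UMIs. Their median of 1240 lay below the median of 4564 in the 42 GABAergic IN cells, whose range (608 to 10820) held all 3. At 48 hpf the 14 cells named MN1 were deep, with a lowest value of 4217, a median of 9988 and a highest value of 19675 UMIs, against 531, 3305 and 15698 in the 223 cells named MN4. The median number of detected genes was 2862 in the cells named MN1 and 1391 in those named MN4. The 1 cell named dl IN had 1096 UMIs.

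Read in the other direction, the stage names took in more than MN5 at 24 and 48 hpf. Of the 57 cells named GABAergic IN at 24 hpf, 27 (47.4%, 34.0 to 61.0) were MN5 and 23 (40.4%, 27.6 to 54.2) were V3 IN in the integrated table, with 7 cells in Mes1, CMN, MN4 and Pre-OPC. The MN5 cells among them had a median of 7834 UMIs and 1745 genes and the V3 IN cells 9051 UMIs and 1971 genes. At 36 hpf the table of that stage had a V3 IN class of its own, and 42 of its 44 GABAergic IN cells (95.5%, 84.5 to 99.4) were MN5 and 2 were V3 IN. Of the 303 cells named MN4 at 48 hpf, 223 (73.6%, 68.3 to 78.5) were MN5, 39 were MN1, 19 were MN4 and 14 were MN2, and 8 were of other classes. The name MN4 thus covered the same cells in both annotations in 19 cases. The 210 cells called MN4 in the integrated table at 48 hpf were mostly MN1 (143 cells) or MN3 (43 cells) in the stage table.

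MN5 made up a larger share of the 48 hpf library than of either earlier one. Its cells were 1.59% of the 24 hpf library, with an exact 95% interval of 1.07 to 2.27, and 2.2% of the 36 hpf library (1.61 to 2.93). At 48 hpf they were 9.94% (8.77 to 11.2). The share at 48 hpf was 6.26 times that at 24 hpf, with an exact 95% interval of 4.25 to 9.55, and 4.52 times that at 36 hpf, with an interval of 3.27 to 6.36. The share at 36 hpf was 1.39 times that at 24 hpf, with an interval of 0.850 to 2.29. By a size rule, a ratio of at least 2 with intervals that do not overlap, MN5 was higher at 48 hpf than at 24 or 36 hpf and was not called between 36 and 24 hpf. The same rule called 39.3% of the 28 classes higher at 48 over 24 hpf, 28.6% at 48 over 36 hpf and 25% at 36 over 24 hpf, and the MN5 ratio ranked 7th, 5th and 13th among the classes. Integrated MN4, for comparison, had a ratio of 22.9 at 48 over 24 hpf (10.9 to 57.6), which rested on 7 cells at 24 hpf. At 48 over 36 hpf its ratio was 2.24 (1.72 to 2.94). V3 IN had ratios of 4.33 (2.89 to 6.73) at 48 over 24 hpf and 0.956 (0.758 to 1.21) at 48 over 36 hpf.

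Among neurons MN5 had its lowest share at 36 hpf, with intervals that overlapped those of 24 hpf. Of the cells in classes MN1 to MN5 it was 20.4% in the 24 hpf library (14.1 to 28.0), 12.6% in the 36 hpf library (9.32 to 16.5) and 29.3% in the 48 hpf library (26.2 to 32.5). Of 11 neuronal classes together it was 8.08%, 6.45% and 18.2% at the 3 stages, so the 36 over 24 hpf ratio had a log2 of -0.33 there and 0.47 over all cells. In cells matched between the libraries on UMI count it was -0.42. The sign of the log2 ratio between 36 and 24 hpf thus changed with the denominator and with matching on UMI count. Over all cells that ratio was not called, so no direction was set between these stages. The highest share stood at 48 hpf under each of these readings. Within classes MN1 to MN5, however, the intervals of 24 hpf (14.1 to 28.0) and 48 hpf (26.2 to 32.5) overlapped.

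MN5 cells had fewer UMIs than the other cells of their library at 24 hpf and, by a larger ratio, at 48 hpf, and about as many at 36 hpf. The 29 cells at 24 hpf ran from 541 to 11044 UMIs with a median of 7722 (interquartile range 6645 to 9365), against a median of 8995 in all other cells of that library. The 45 cells at 36 hpf ran from 608 to 10820 with a median of 4513 (3654 to 4912), against 4572 in the others. The 238 cells at 48 hpf ran from 531 to 19675 with a median of 3401.5 (2728 to 4193), against 6082 in the others. The ratio of the medians was 0.858, 0.987 and 0.559 at the 3 stages. Against the other neuronal classes alone it was 0.987, 1.08 and 0.610, so MN5 was about as deep as other neurons at 24 hpf. Among the 21 classes with at least 20 cells at 48 hpf, MN5 had the lowest median of UMIs and the next class up, MN2, had 4272. Its median ranked 12th from the lowest of 21 classes at 36 hpf and 7th of 17 at 24 hpf.

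MN5 was also shallower at 48 hpf than the integrated classes MN4 and V3 IN. Integrated MN4 cells at 48 hpf had a median of 9200.5 UMIs, so that the MN5 median was 0.370 of it, and V3 IN cells had 7130, which gave a ratio of 0.477. At 36 hpf the same ratios were 1.00 and 0.95. Cells below 2000 UMIs were 36 of 238 MN5 cells (15.1%, 10.8 to 20.3) at 48 hpf, against 67 of 2156 other cells (3.11%, 2.42 to 3.93). In the 24 hpf library 2 of 29 MN5 cells and 126 of 1797 others were that shallow, as were 5 of 45 MN5 cells and 201 of 1999 others in the 36 hpf library. MN5 therefore held 5.50% of the UMIs of the 48 hpf library (965097 UMIs, exact Poisson interval 963172 to 967024) with 9.94% of its cells. That interval takes each UMI as an independent count and leaves out the sampling of cells. The summed UMIs of MN5 were 208885 at 24 hpf and 192739 at 36 hpf, 1.27% and 1.81% of those libraries.

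MN5 cells had fewer detected genes than the other cells at 24 and 48 hpf and about as many at 36 hpf. The median MN5 cell had 1735 genes at 24 hpf, with quartiles of 1577 and 1927. At 36 hpf the median was 1346 genes (quartiles 1175 and 1439), and at 48 hpf it was 1411.5 (quartiles 1193.25 and 1646.75). The other cells had medians of 2053, 1349 and 2016, and MN5 again had the lowest median of the 21 classes ranked at 48 hpf. Among cells of 4000 to 8000 UMIs, the 10 MN5 cells at 24 hpf had a median of 1643.5 genes, the 29 at 36 hpf 1428 genes and the 48 at 48 hpf 1731 genes. The median UMIs of these cells were 7117, 4805 and 4628, so the 48 hpf cells showed more genes at no more UMIs. The other neuronal classes also had more genes at 48 than at 24 hpf (1949 against 1843) at fewer UMIs (5460 against 6839). The difference from 24 hpf was thus not particular to MN5. From 36 to 48 hpf the other neuronal classes rose in both. In the same range MN5 stood below the other neuronal classes at each stage, with differences of medians given by 1643.5 against 1843 genes in the 24 hpf library, 1428 against 1524 in the 36 hpf library and 1731 against 1949 in the 48 hpf library. The other neurons of this range had median UMI counts of 6839, 4758 and 5460, so MN5 had the fewer UMIs only at 48 hpf.

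**Figure D2:**
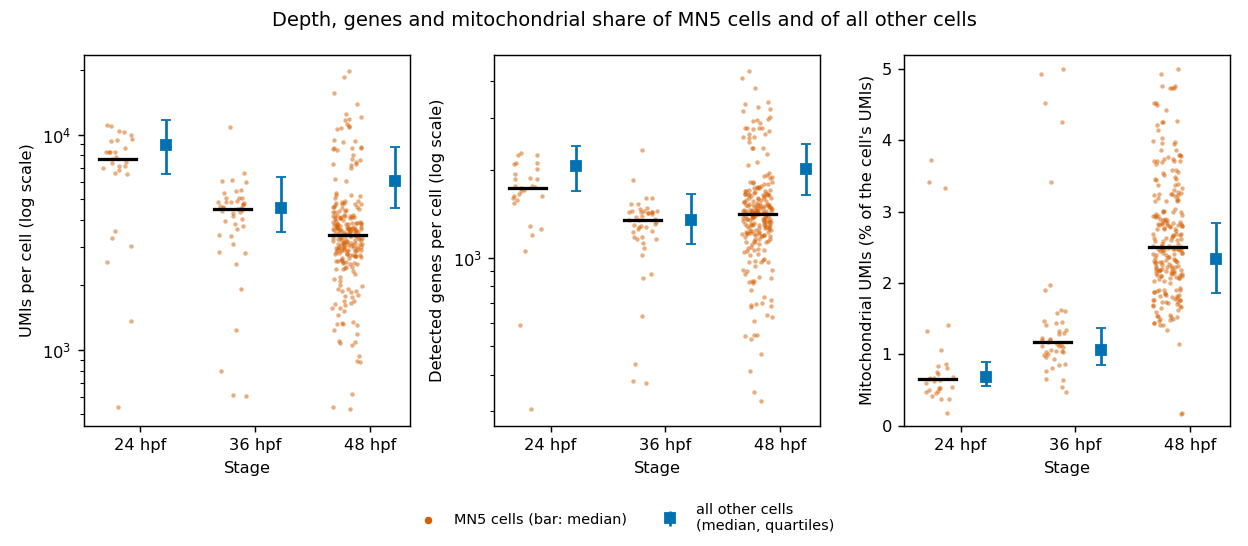
UMIs per cell, detected genes per cell (both on log scales) and the mitochondrial percent of a cell's UMIs, by stage. Orange points are single MN5 cells with a black bar at their median, and blue squares with bars are the median and quartiles of all other cells of the library. At 48 hpf the MN5 median of 3401.5 UMIs lies below the lower quartile of the other cells, 4556.5.

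The mitochondrial share of MN5 cells moved with that of their libraries. Its median was 0.657% at 24 hpf (quartiles 0.504 and 0.839), 1.17% at 36 hpf (quartiles 1.01 and 1.45) and 2.50% at 48 hpf (quartiles 2.10 and 3.16). The other cells had 0.687%, 1.06% and 2.34%, so the ratio of the MN5 median to theirs was 0.956, 1.11 and 1.07. Cells above 3% were 3 of 29 MN5 cells at 24 hpf, 5 of 45 at 36 hpf and 66 of 238 (27.7%, 22.1 to 33.9) at 48 hpf, where 424 of 2156 other cells (19.7%, 18.0 to 21.4) were. Against integrated MN4 the median over all MN5 cells was lower at each stage, with 0.657% against 0.878% in the 24 hpf library, where MN4 had 7 cells, 1.17% against 1.52% in the 36 hpf library and 2.50% against 2.79% in the 48 hpf library. Among cells of 4000 to 8000 UMIs the direction turned at 48 hpf, with 2.78% in MN5 against 2.63% in MN4, and stayed at 36 hpf, with 1.12% against 1.21%. Depth still differed within this range at 48 hpf, with median UMIs of 4628 in the 48 MN5 cells and 6068 in the 78 MN4 cells. The other neuronal classes had 2.30% in this range at 48 hpf, below MN5, but stood above MN5 at 24 and 36 hpf. Over all depths MN5 was lower than V3 IN and than CSF-cN1 and CSF-cN2 together at 24 and 36 hpf. At 48 hpf its 2.50% was higher than the 2.36% of V3 IN and the 1.78% of CSF-cN1 and CSF-cN2.

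In the integrated table MN5 was a class of cells called G1, the phase between division and DNA synthesis that also takes in cells that no longer divide. The calls gave G1 to 28 of 29 cells at 24 hpf, 43 of 45 at 36 hpf and 236 of 238 at 48 hpf, no cell was called S, and 5 cells were called G2M. The 24 hpf cell among the 5 had 1353 UMIs and was one of the cells named pMN2, the 36 hpf cells had 616 and 10820 UMIs, and the 48 hpf cells 543 and 1970. The 36 hpf cell of 10820 UMIs had the highest count of that stage's MN5 cells and a G2M score of 0.57, and the scores of the other 4 lay between 0.015 and 0.14. Cells called S or G2M were thus 3.45% (0.0873 to 17.8), 4.44% (0.543 to 15.1) and 0.840% (0.102 to 3.00) of MN5 at the 3 stages. In all other cells they were 66.8%, 39.4% and 22.2%, and in the other neuronal classes 6.06%, 4.90% and 1.59%. Integrated MN4 had 0 of 7, 6 of 80 and 2 of 210, and V3 IN 0 of 28, 2 of 142 and 2 of 159.

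The tables of the stages gave the same calls at 24 and 36 hpf and other calls at 48 hpf. All 29 and all 45 MN5 cells of the early libraries had the same phase in both kinds of table. At 48 hpf 163 of 238 (68.5%) did, since 58 cells with a G1 call in the one were S and 17 were G2M in the stage table, which with 2 further G2M cells made 77 cells (32.4%, 26.5 to 38.7) called S or G2M. Over all other cells of that library the stage table called 33.5% (722 of 2156, 31.5 to 35.5), a share near that of MN5. It was 18.6% in the other neuronal classes together (199 of 1072, 16.3 to 21.0), 9.05% in integrated MN4 (19 of 210, 5.54 to 13.8) and 17.0% in V3 IN (27 of 159, 11.5 to 23.7). Among the 10 neuronal classes with at least 20 cells MN5 stood behind Pre-V3 IN (48.9%) and Pre-MN (35.4%) and ahead of MN3 (17.7%).

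These calls rested on small scores. Median S scores of MN5 cells were -0.37, -0.17 and -0.029 at 24, 36 and 48 hpf in the stage tables, and -0.24, -0.26 and -0.29 in the integrated table. Median G2M scores were -0.26, -0.23 and -0.062 in the stage tables and -0.20, -0.20 and -0.24 in the integrated table. In the stage tables the other neuronal classes had median S scores of -0.39, -0.18 and -0.043. Their median G2M scores there were -0.26, -0.23 and -0.077, so the move towards 0 was not particular to MN5. A score is relative to the cells scored with it, and a phase other than G1 is called when the higher score passes 0. Of the 77 MN5 cells called S or G2M at 48 hpf, 45 had a higher score of at most 0.02 and 76 of at most 0.1. Their median UMI count was 3099, against 3521 in the 161 cells called G1. With calls kept only above a score of 0.1, 1 of the 238 cells (0.420%) remained. The share under this cut was not taken for other cells, so the drop cannot be called particular to MN5. In the 48 hpf stage table the scores of all other cells also lay near 0. Their quartiles were -0.057 and 0.0029 for S and -0.10 and -0.020 for G2M.

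**Figure D3:**
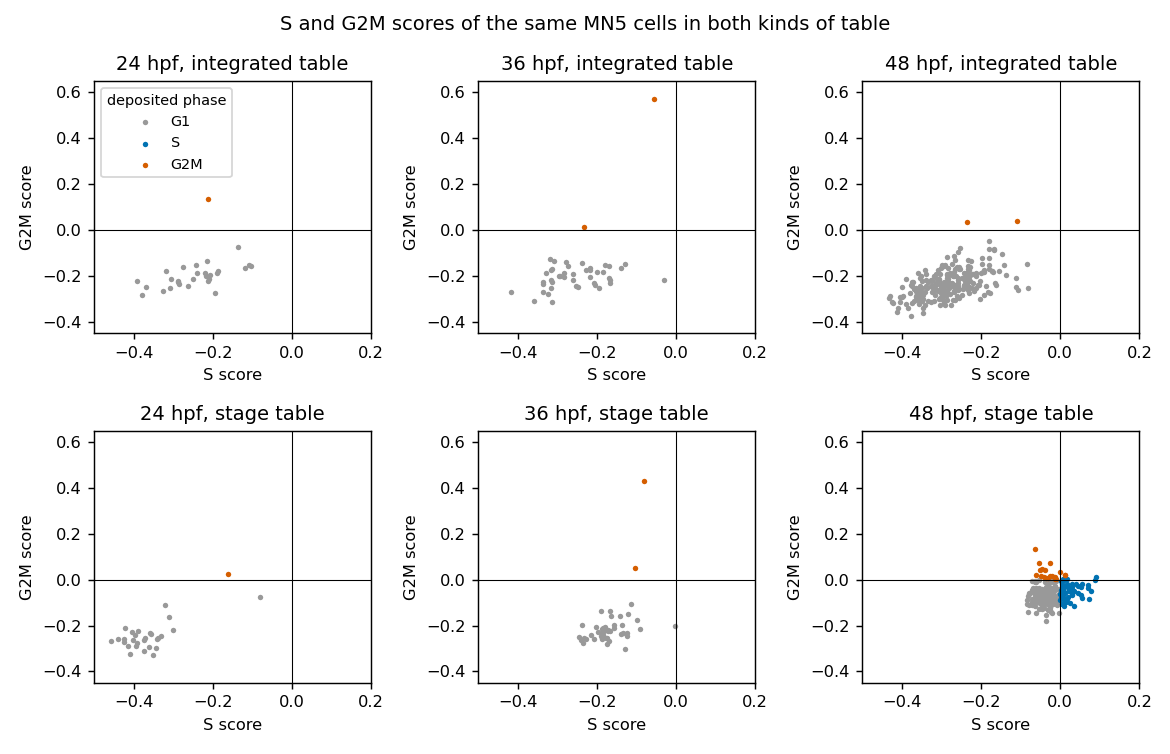
S score (horizontal) and G2M score (vertical) of each MN5 cell in the integrated table (upper row) and in the table of its own stage (lower row), coloured by the deposited phase. Lines mark 0. In the 48 hpf stage table the cells lie around 0, with 77 of 238 called S or G2M, and only 2 of the same cells have such a call in the integrated one.

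The position of MN5 cells in the authors' integrated embedding also differed by stage. The embedding is a map of all cells on 2 axes without a unit, in which nearby cells have like profiles and long distances have no fixed meaning. The MN5 median lay at -6.24 and 1.68 on the axes at 24 hpf, at -6.15 and 1.61 at 36 hpf, and at -5.72 and 3.16 at 48 hpf. On the second axis 213 of the 238 cells at 48 hpf (89.5%) lay above the highest of the 74 earlier cells (1.94). On the first axis the ranges of the stages overlapped. The count on the second axis was not made for other classes, so it cannot be called particular to MN5. The distance between the medians was 0.114 for 36 against 24 hpf, the smallest of 15 classes with at least 20 cells at both stages. It was 1.60 for 48 against 36 hpf and 1.57 for 48 against 24 hpf, in each case the largest of the classes that could be ranked (16 and 13), with NP1 next at 1.05 and Lateral FP next at 1.23. Integrated MN4, left out of the ranking against 24 hpf because it had 7 cells there, had a distance of 1.52 for 48 against 24 hpf and 0.572 for 48 against 36 hpf. The median over the ranked classes was 0.474 for 48 against 36 hpf and 0.638 for 48 against 24 hpf.

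Neighbours in the embedding were also divided by stage. Of the 15 cells nearest to each 24 hpf MN5 cell, 35.2% were MN5 at 24 hpf, 51.0% MN5 at 36 hpf and 7.36% MN5 at 48 hpf. Around 36 hpf cells the same shares were 35.1%, 47.9% and 11.1%. Around 48 hpf cells they were 0.700%, 1.71% and 82.6%, and a further 9.94% of neighbours were integrated MN4 of any stage. V3 IN cells were 3.22%, 3.85% and 0.420% of the neighbours at 24, 36 and 48 hpf, and no MN4 cell was a neighbour of an early MN5 cell. When only cells of the same class were counted as neighbours, 24 or 36 hpf cells were 2.80% of the neighbours of 48 hpf MN5 cells, although they were 23.7% of the class. In V3 IN they were 31.2% of the neighbours and 51.7% of the class, in integrated MN4 20.8% and 29.3%, in MN1 36.3% and 44.0%, and in MN2 35.2% and 56.1%. The 5 classes come from the same 3 libraries and share their barcode differences, but their depth did not change alike. From 36 to 48 hpf the median UMIs fell from 4513 to 3401.5 in MN5. They rose from 4493.5 to 9200.5 in integrated MN4 and from 4750 to 7130 in V3 IN. The part of depth and barcodes in the MN5 values was not tested.

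**Figure D4:**
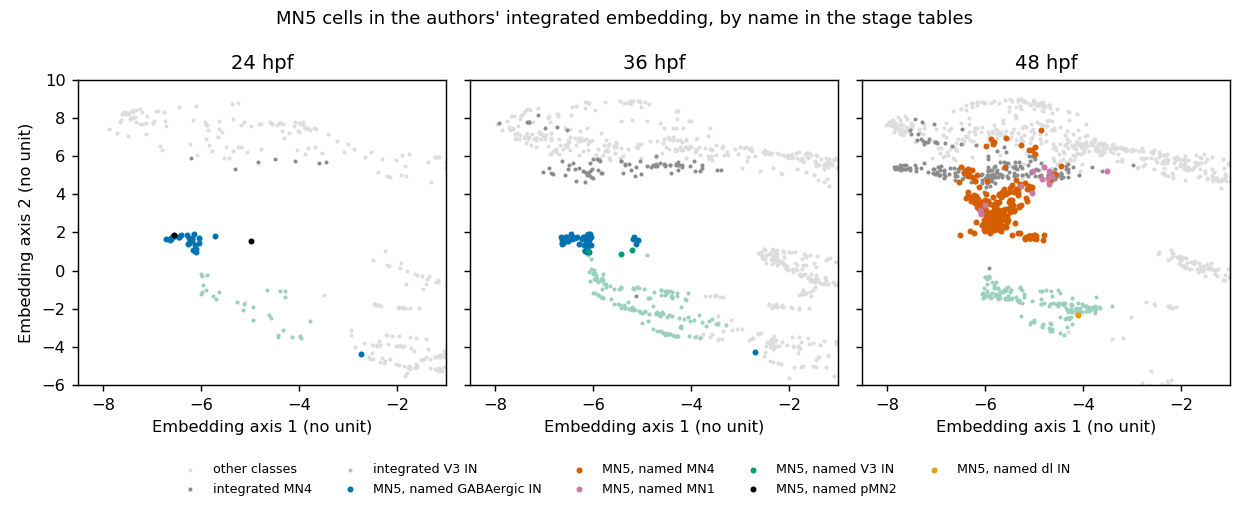
The region around MN5 in the authors' integrated embedding at each stage (axes without unit). Coloured points are MN5 cells by their name in the stage table, dark grey points are integrated MN4, pale green points V3 IN and light grey points other classes. All MN5 cells at 24 and 36 hpf lie below 2 on the second axis, and 213 of 238 cells at 48 hpf lie above the highest of them. The same count was not made for other classes.

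A few 48 hpf cells lay within the area that the early ones covered, most of them towards its edge. The area that holds the 5th to 95th percentile of the 24 and 36 hpf cells on each axis contained 23 of 29 and 37 of 45 of those cells, shares which the choice of the area sets, and 6 of the 238 cells at 48 hpf. Those 6 had 2436, 2793, 2996, 3237, 3537 and 3830 UMIs, and all were named MN4 in the stage table. Their mitochondrial shares were between 3.80% and 4.73% in 5 of them and 1.54% in the remaining one, and the median of all 48 hpf MN5 cells was 2.50%. On the first axis those 5 lay between -5.46 and -5.16, and the remaining one at -6.52. The quartiles of the early MN5 cells there were -6.53 and -6.13 at 24 hpf and -6.45 and -6.09 at 36 hpf. Those 5 thus lay away from most early cells. The 25 cells of 48 hpf that were not above the early cells on the second axis had a median of 1627 UMIs and 4.14% mitochondrial UMIs, against 3516 UMIs in the 213 above. Low depth and a high mitochondrial share moved with that position, and their part in it was not tested. In the embedding of the 24 hpf stage on its own, 92.2% of the 15 nearest cells of an MN5 cell were MN5 and 4.60% were V3 IN. These shares covered all 29 MN5 cells and V3 IN cells of any stage-table name, not only those named GABAergic IN. MN5 was the whole of a single integrated cluster (312 of 312 cells). Clusters group cells with like profiles, so many neighbours of the same class were to be expected.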

How the data were processed

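Green cells were sorted from dissociated embryos and profiled with 10x Chromium 3' libraries, per the labels' protocols. The submitters' processing notes name Cell Ranger, Seurat and GRCz11 without settings. The files were tables of cells. UMIs and detected genes per cell are raw counts deposited by the authors, the mitochondrial share is a percent deposited by the authors (largest value 4.995%), the S and G2M scores are scores deposited by the authors, and the embedding coordinates have no unit. No cell had under 504 UMIs or above 4.995% mitochondrial UMIs, which points to filters on both measures before deposit. What was done about doublets is not given, and the tables allow no doublet call.

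Cells of the integrated and stage tables were joined by barcode and stage, and all 6264 matched with equal UMI counts. In all 6264 cells of each table the phase followed the higher score. Stages are the groups, taken from the labels. Shares have exact Clopper-Pearson 95% intervals, ratios exact conditional ones and summed counts exact Poisson ones, which cover counting error only. The Poisson intervals leave out the sampling of cells. A class with no cell at a stage was given a floor of 3 cells in the size rule. The interval and ratio functions were tested on simulated cells. Medians are given with quartiles, no p-value was computed, and no gene is named with a value because the tables hold none. Classes named were those with at least 2% of a stage's MN5 cells, or at least 10% of a stage-table class shared with MN5, and the comparison classes MN4, V3 IN, CSF-cN1, CSF-cN2 and the other MN classes. Pre-MN, Pre-V3 IN, NP1, Lateral FP, dl IN and the smaller remainders are named outside that rule, after their values were seen. The members, classes and measures were chosen with earlier results of these data known. Neighbours in the embedding and the area of the early cells were added after seeing the data. The neuronal classes were MN1 to MN5, Pre-MN, V3 IN, Pre-V3 IN, V2 IN Precursor, CSF-cN1 and CSF-cN2. Matching weighted each of 20 bins of log UMI count by the smallest of the 3 libraries' cell numbers in it (875 cells per stage). Tables were handled with pandas 2.3.3 and numpy 2.4.6 in Python 3.11.15, intervals came from scipy 1.17.1, neighbours from scikit-learn 1.9.0 and figures from matplotlib 3.10.9.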

Additional observations from a re-analysis of the deposited data

How the results depend on the processing

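Each stage had 1 library, so no replicate could be left out. No paired analysis was possible because the stages have 1 library each. Of 108 alternative values 83 were counted as unchanged, 25 moved outside the interval of the reported value and 0 called values changed sign. The 83 include the neighbour shares with 5 or 30 nearest cells, for which no interval is given. Over neuronal classes the MN5 shares were 8.08%, 6.45% and 18.2% at 24, 36 and 48 hpf, with log2 ratios of -0.33 (36 over 24 hpf), 1.17 (48 over 24 hpf) and 1.49 (48 over 36 hpf). Matched on UMI count, the shares at 36 and 48 hpf were 1.37% and 11.4%, and the log2 ratios -0.42 (36 over 24 hpf) and 3.06 (48 over 36 hpf). With at least 2000 UMIs, 100% of MN5 cells at 24 hpf were GABAergic IN, the 48 hpf medians were 3616.5 UMIs and 1451 genes, and 0% of cells were called S or G2M at 24 and 48 hpf. As a share of the stage-table class, MN5 was 47.4% of GABAergic IN at 24 hpf and 73.6% of MN4 at 48 hpf. In cells of 4000 to 8000 UMIs the median mitochondrial share was 0.494% at 24 hpf and 2.78% at 48 hpf, and the median genes 1731 at 48 hpf. With at most 3% mitochondrial reads the 48 hpf median was 2.27%. By the stage table's calls 32.4% of the 48 hpf cells were S or G2M, and 0% by integrated scores above 0.1. The causes were not tested. The 29 and 45 early cells limit the precision of every early share.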

Other observations

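The names of other motor neuron classes also moved between the annotations. Of the integrated MN1 cells at 48 hpf 102 of 159 were MN1 in the stage table and 39 were MN4, beside the MN5 cells of that name. All 43 at 24 hpf were MN1, the only one of the names MN1 to MN4 in use at that stage. Integrated MN3 cells were MN1 in the stage tables at 24 hpf (4 of 4) and 36 hpf (26 of 26), which had no MN3. At 48 hpf, where the name MN3 was in use, 60 of 62 were MN2. MN2 kept its name in 115 of 125 cells at 36 hpf and 124 of 144 at 48 hpf, and at 24 hpf 58 of 59 were MN1, since that table had no MN2. The name dl IN of the 48 hpf table went to V3 IN in the integrated table in 27 of 31 cells, and to MN5 in 1.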
